A study of Callithrix jacchus with 54 samples.

Results

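The comparison reported here is the step from day 20 to day 40 of culture in xenogeneic reconstituted ovaries (xrOvaries), read in 4 of the 54 RNA-seq libraries of the series, 2 for each day. The libraries of each day were taken by their labels. The cells were common marmoset (Callithrix jacchus) primordial germ cell-like cells (PGCLCs) made from the embryonic stem cell line CMES40, of wild-type genotype with the reporters BLIMP1-tdTomato (BT) and NANOS3-eGFP (NG). All 4 libraries share one history. The stem cells were pre-treated with activin A and the WNT agonist IM12, and then cultured to day 6 with the cytokines LIF, SCF and BMP4, with EGF, and with the inhibitors IWR1, which blocks WNT signalling, and Rock inhibitor. The sorted PGCLCs were then mixed with somatic cells of embryonic female mouse gonads from which the mouse germ cells had been removed. The aggregates were first kept with retinoic acid and Rock inhibitor and then on membranes without them, and tdTomato(+) cells were sorted again from the aggregates after 20 or 40 days. The model is therefore a single cell line in a somatic environment of another species, and time in culture is the labelled difference between the groups. The libraries of a day are described as biological duplicates, but the labels do not say from how many separate cultures. The p-values below rest on the spread between duplicates pooled over all 27 conditions of the series. The 4 libraries compared contribute only a part of that spread. Day 6 PGCLCs and xrOvary cells of day 70, in 2 libraries each, are given beside the main values where they help to place them.

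In mammals, primordial germ cells keep the transcription factors of specification and of pluripotency for some time after they enter the gonad. They then start genes of the later germ line, among them the RNA-binding proteins DAZL and DDX4 and the piRNA pathway, in which PIWI proteins, Tudor-domain scaffolds and their partners make small RNAs that silence transposons. In the ovary, meiotic prophase and the growth of the oocyte follow. Chemokines such as CXCL12 are better known from the somatic cells around germ cells, which attract cells that carry the receptor CXCR4.

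Expression is given in TPM, the share of a gene's transcripts among all transcripts of its library, which scales each library to a constant total, so every change is relative to the other transcripts, and fewer cells of one kind cannot be told apart from less RNA per cell. The day 20 libraries differed from each other more than any other pair in the series. The second one listed 10146 genes above 0, the fewest of the 54 libraries, where the first listed 11441 and the day 40 libraries 11627 and 11716. Across the 11197 genes tested, 838 were at 0 in the second day 20 library alone and 130 in the first alone. The corresponding counts at day 40 were 240 and 216. The correlation of log2(TPM + 1) across genes, which are not independent replicates, was 0.977 between the day 20 libraries and 0.991 between the day 40 libraries. Both libraries of a day are therefore shown for each gene, as library 1 and library 2 in that order. Because CDK1, a kinase that dividing cells need, is listed at 0 in 2 of the 4 libraries and at up to 1.21 TPM in the others, a value of 0 is reported only as listed.

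The sorted cells had the markers of their label. POU5F1, the central factor of pluripotency that germ cells retain, stood at 4891 and 5080 TPM at day 20 and at 4956 and 4788 TPM at day 40. SOX17, the factor that specifies primate germ cells, was at 333.6 and 408.5 TPM and then at 337.1 and 309.1 TPM. SOX2, which primate germ cells switch off, was listed at 0 in all 4 libraries.

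Differences were tested with limma on log2(TPM + 1), in one model of all 54 libraries whose spread between replicates was pooled over 27 conditions, and p-values were adjusted over the 11197 genes by the Benjamini-Hochberg method. At an adjusted p under 0.05, 286 genes were higher at day 40, 2.55% of those tested, and 722 were lower, 6.45%. A stricter rule asked for more than 4-fold, for a mean above 1.5 on the log2 scale and for an adjusted p below 0.01. By that rule 9 genes (0.0804%) were higher and 14 (0.125%) lower; these are called differentially expressed genes (DEGs) below. Complete separation of the 4 libraries was common: both day 40 values lay above both day 20 values for 15.5% of the genes tested and below them for 31.6%. The excess of lower genes depended on the scaling, since the share of lower genes among those called was 71.6% as deposited, 51.9% after median-ratio scaling and 50.9% after quantile normalization.

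The second day 20 library weighed on the genes that were higher at day 40. Of the 286, 71 (24.8%) were at 0 in that library alone, against 7.48% of all genes tested, and 27 more were at 0 in both day 20 libraries. Without it, 577 genes passed, 128 higher and 449 lower, of which 105 and 358 were also called with all libraries. Without the first day 20 library, 514 genes were higher and 807 lower. Without the first day 40 library 526 genes passed in all, and without the second 512. A call that held without each of the 4 libraries in turn was made for 54 of the 286 higher genes and 206 of the 722 lower genes. A model of the 4 libraries alone gave 0 genes at an adjusted p under 0.05 with limma, although 2001 had an unadjusted p under 0.05.

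**Figure D1:**
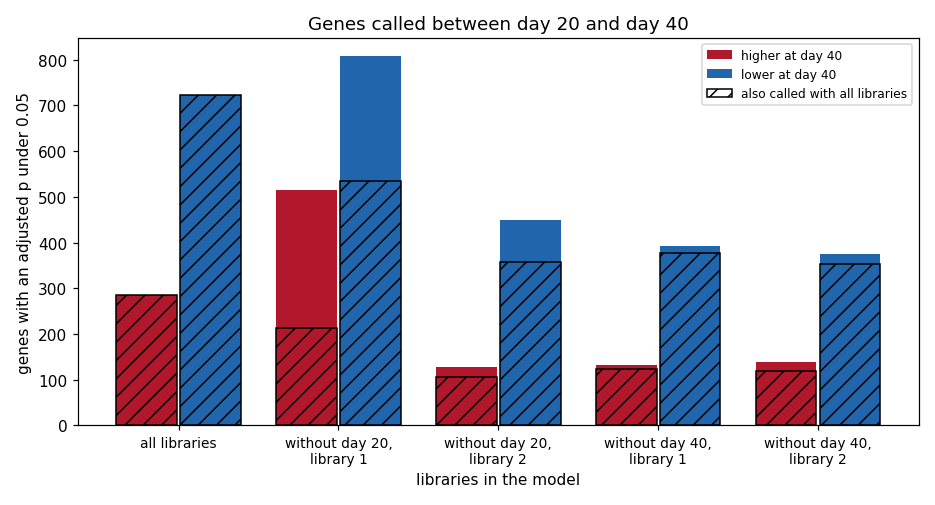
Number of genes with an adjusted p under 0.05 between day 20 and day 40 (vertical axis), with all 54 libraries in the model and without each of the 4 libraries compared; red bars are genes higher at day 40, blue bars genes lower, and hatched areas those also called with all libraries. The red bar falls from 286 to 128 without library 2 of day 20 and reaches 514 without library 1 of day 20.

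Among the 20 lists examined, in which 37 members were called (18 higher, 19 lower), the piRNA pathway had the largest median difference on the log2(TPM + 1) scale. On the log2(TPM + 0.1) scale its median was 0.78, below the 0.92 of the late germ cell regulators. Of its 16 members tested, 7 were higher at day 40 and 0 lower, with a median log2 difference of 0.60 where the median over all genes was −0.08. Over all genes tested, 2.55% were called higher and 6.45% lower, and the counts of every list stand beside these shares. In the counts of the lists, members that rose or fell are those called. Median-ratio scaling moved the median over all genes by 0.08 and the count of piRNA genes called to 10, and quantile normalization gave 9. With the filter set on the 4 libraries compared, DDX4, PIWIL2 and ASZ1 left the test, because they passed the main filter only through other libraries. The count was then 4 of 13 members, and in a model of the 8 libraries of day 6 and the xrOvaries it was 4 of 16. It was 6 and 3 without the first and the second day 20 library, and 2 and 5 without the first and the second day 40 library. MAEL (gene 100410059), a partner of the PIWI proteins, stood at 22.15 and 17.12 TPM at day 20 and at 47.0 and 32.52 TPM at day 40. Both day 40 libraries lay above both day 20 libraries, as they did for the other 6 genes that rose. The log2 difference of MAEL was 0.97 ± 0.269 (SE, adjusted p = 0.0164), between 7.06 and 7.07 TPM in day 6 PGCLCs and 69.43 and 72.37 TPM at day 70. The Tudor-domain gene TDRD12 was at 0.11 and 0.97 TPM and then at 4.19 and 3.48 TPM (1.71 ± 0.247, adjusted p = 9.28e-06). RNF17, another Tudor-domain gene, was listed at 0 in both day 20 libraries and in both day 6 libraries, and reached 2.12 and 1.62 TPM at day 40 (adjusted p = 1.03e-09). These 2 Tudor-domain genes kept their call without each of the 4 libraries.

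The other piRNA genes that rose were a PIWI protein and further partners. GTSF1, a cofactor of PIWI proteins, was at 6.78 TPM in one day 20 library and at 0 in the other, and at 15.75 and 8.18 TPM at day 40 (log2 difference 2.15 ± 0.632, adjusted p = 0.025). ASZ1, which acts at the surface of germ cell mitochondria, was at 0.27 and 0 TPM and then at 1.38 and 0.77 TPM. PIWIL2, itself a PIWI protein, was at 0.13 and 0.61 TPM and then at 0.94 and 1.01 TPM. The helicase DDX4 was listed at 0 in both day 20 libraries and at 0.51 and 0.62 TPM at day 40. Among the members already abundant at day 20, TDRD1 was at 33.23 and 32.7 TPM and then at 60.14 and 49.4 TPM, and TDRKH at 205.8 and 238.2 TPM and then at 206.0 and 210.9 TPM; neither passed the test. Without the second day 20 library, the adjusted p was 0.186 for MAEL, 0.714 for GTSF1, 0.194 for ASZ1 and 0.136 for DDX4. The log2 difference was then 0.79 for MAEL, 0.69 for ASZ1 and 0.65 for DDX4, which with all libraries had 0.86 for ASZ1 and 0.65 for DDX4. For GTSF1 it went from 2.15 to 0.67, and to 3.63 without the first day 20 library. Leaving out the first day 40 library gave log2 differences of 0.71 for MAEL, 1.72 for GTSF1, 0.65 for ASZ1 and 0.70 for DDX4. None of these genes was then called. DDX4 also missed the threshold without the first day 20 library (0.0834) and the second day 40 library (0.196), and PIWIL2 did so without the first day 20 library (0.352, with a log2 difference of 0.29 in place of 0.55), the first day 40 library (0.11) and the second day 40 library (0.167).

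**Figure D2:**
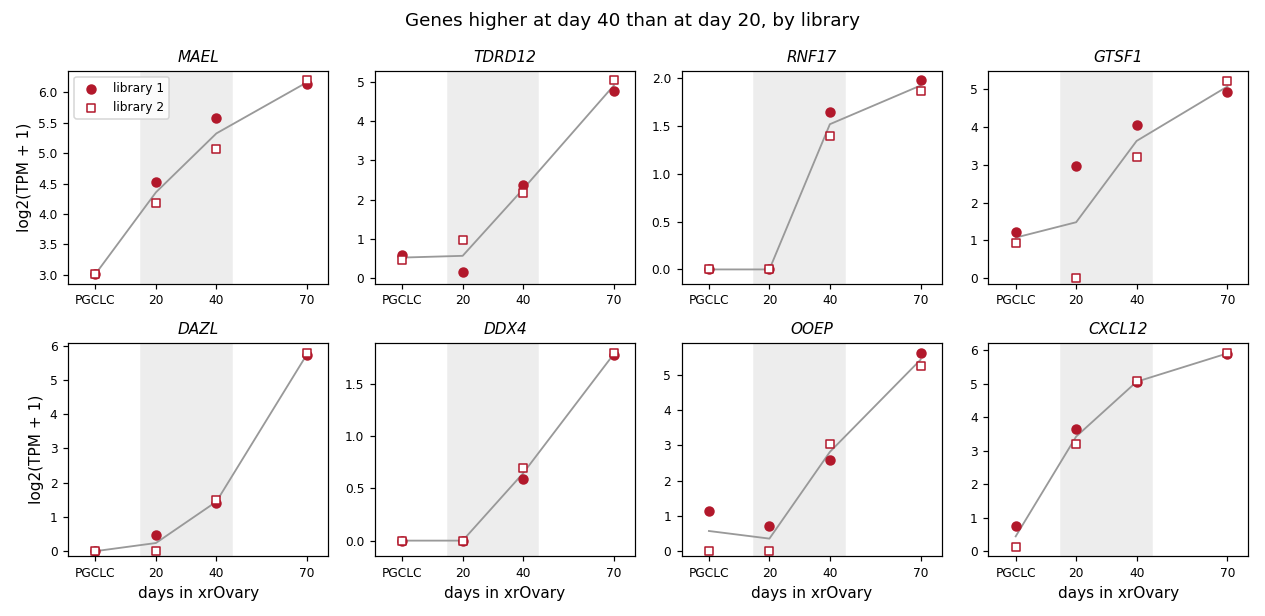
Expression of 8 genes that were higher at day 40, as log2(TPM + 1) (vertical axes, with a separate range for each gene) in day 6 PGCLCs and after 20, 40 and 70 days in xrOvaries (horizontal axes). Filled circles are library 1 and open squares library 2, lines join the means and the compared days are shaded; GTSF1 shows the widest gap between the day 20 libraries, 6.78 and 0 TPM.

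Regulators of later germ cells moved in both directions, with 5 of 13 members tested higher, 1 lower and a median log2 difference of 0.38. That median was 0.92 with log2(TPM + 0.1), 0.13 without the filter on low values and 0.65 without the first day 20 library. RNF17 and DDX4 are also members of this list. With the filter set on the 4 libraries compared, DAZL and DDX4 left the test, and 3 of 10 members were called higher and 1 lower. DAZL, the RNA-binding protein that licenses germ cells for gametogenesis, was at 0.39 and 0 TPM at day 20 and at 1.64 and 1.81 TPM at day 40 (log2 difference 1.21 ± 0.334, adjusted p = 0.0161). TOPAZ1, a germ cell factor known from male meiosis, was at 0.73 and 0.83 TPM and then at 3.5 and 2.65 TPM (1.19 ± 0.233, adjusted p = 0.000632). PRSS21, a membrane serine protease of germ cells, was at 1.76 and 0 TPM and then at 6.58 and 5.96 TPM (2.13 ± 0.36, adjusted p = 9.96e-05). DAZL and TOPAZ1 thus stood under 4 TPM at day 40, and at 51.88 and 53.9 TPM and at 21.36 and 21.97 TPM at day 70. SOHLH2, a transcription factor of early gametogenesis, was the member that fell, from 27.73 and 33.02 TPM to 14.94 and 15.36 TPM (−0.95 ± 0.154, adjusted p = 5.3e-05). It had been at 75.78 and 80.26 TPM at day 6. DMRT1, a transcription factor of gonadal germ cells, was at 29.99 and 23.17 TPM and then at 34.61 and 34.75 TPM, without passing the test. TOPAZ1, RNF17, PRSS21 and SOHLH2 kept their call without each library, PRSS21 with a log2 difference of 1.40 without the second day 20 library. DAZL did not pass without the second day 20 library (adjusted p = 0.194) or without either day 40 library (0.0767 and 0.114), and the values of DDX4 without each library are given with the piRNA genes.

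In the list of 9 oocyte-associated genes tested, 2 rose and 0 fell, and the median log2 difference was 0. It was 0.42 with log2(TPM + 0.1) or with the filter set on the 4 libraries, and 0.46 without the second day 20 library, 0.24 without the first day 40 library and 0.12 without the first day 20 library. OOEP, a component of the subcortical complex that eggs store for the embryo, was at 0.63 and 0 TPM and then at 5.05 and 7.2 TPM (log2 difference 2.46 ± 0.446, adjusted p = 0.000247). It was the only DEG of this list. FOXR1, a forkhead transcription factor, was at 12.05 and 14.92 TPM and then at 29.34 and 32.15 TPM (1.14 ± 0.292, adjusted p = 0.00923), and it had been near 0 at day 6, with 0 and 0.53 TPM. KHDC3L, a partner of OOEP in the same complex, was at 319.6 and 340.7 TPM at day 20 and at 449.7 and 433.4 TPM at day 40, a separation that did not pass the test. The zona pellucida genes showed no such separation, ZP3 being at 3.0 and 1.96 TPM and then at 1.56 and 3.05 TPM, and ZP4 at 0 in all 4 libraries. Among genes of the list that did not pass the filter on low values, GDF9, an oocyte growth factor, was at no more than 0.83 TPM. OOEP passed without each library, whereas FOXR1 missed the threshold without the first day 20 library (adjusted p = 0.0657) and the second day 40 library (0.0862).

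Genes of meiotic prophase had 1 call. Of 41 genes on it, 33 were in the table and 19 passed the filter on low values, of which 0 were higher at day 40 and 1 lower, and the median log2 difference was −0.04, which median-ratio scaling turned to 0.06 and quantile normalization to 0.13. The cohesin and synaptonemal complex genes REC8, SYCP1 and SYCP3 did not pass the filter, and in these 4 libraries none of them exceeded 1.19 TPM. Others of these classes passed it and were not called. The synaptonemal gene SYCE3 was at 14.03 and 11.67 TPM and then at 22.22 and 9.98 TPM. SYCE1 was at 4.6 and 5.89 TPM and then at 2.97 and 3.38 TPM. The cohesin gene SMC1B was at 5.67 and 6.4 TPM and then at 6.46 and 5.26 TPM. REC114, a partner in the machinery of meiotic DNA breaks, was already at 50.84 and 21.31 TPM at day 20, where day 6 PGCLCs had 2.71 and 2.2 TPM, and at 56.89 and 70.31 TPM at day 40, without passing the test. IHO1, a protein of the same machinery, was the gene called lower, at 0.39 and 2.67 TPM and then at 0 and 0.14 TPM (log2 difference −1.08 ± 0.233, adjusted p = 0.0018). Without the second day 20 library its log2 difference was −0.38 (adjusted p = 0.335), and the list then had 0 calls. Without the first day 20 library the list had 1 member higher and 4 lower. The median of the list was 0.03 without the second day 20 library and 0.09 without the second day 40 library, and −0.10 and −0.14 without the others. STRA8, the gatekeeper of meiotic entry, was at no more than 0.67 TPM in any of the 4 libraries.

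The programme of germ cell specification and of pluripotency did not pass the test in either direction, with 0 of 16 and 0 of 18 members called and median log2 differences of −0.07 and −0.02, whose sign turned under median-ratio scaling, to 0.04 for both lists. Without the first day 20 library they were −0.27, with 1 specification gene called higher, and −0.08, with 1 pluripotency gene called lower. A model of the 8 libraries of day 6 and the xrOvaries called 1 member of each list lower. For POU5F1 the log2 difference was −0.03, with a 95% interval from −0.23 to 0.16. NANOG stood at 784.7 and 847.2 TPM and then at 758.0 and 828.6 TPM, with an interval from −0.39 to 0.31. TFAP2C, a partner of SOX17 in specification, was at 730.2 and 722.5 TPM and then at 691.2 and 712.8 TPM, with an interval from −0.42 to 0.32. The intervals of SOX17 (−0.78 to 0.39) and NANOS3, an RNA-binding protein that protects germ cells (−0.69 to 0.51), were wider and allow changes of some size. PRDM1, which encodes BLIMP1, was at 174.6 and 205.6 TPM and then at 147.5 and 143.0 TPM, with an interval from −0.81 to 0.05, and its reporter was used to sort the cells.

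CXCL12 (gene 100402880) rose in the sorted cells. It was at 11.6 and 8.13 TPM at day 20 and at 31.9 and 32.79 TPM at day 40, a log2 difference of 1.64 ± 0.325 (adjusted p = 0.000714). The groups did not overlap, and the call held without each of the 4 libraries, with log2 differences between 1.40 and 1.87. Day 6 PGCLCs had 0.7 and 0.09 TPM, and day 70 cells 58.38 and 59.42 TPM. The other markers of gonadal somatic and stromal cells were not called. Of the 20 list members in the table, 18 were under 5 TPM in all 4 libraries, the stromal transcription factors NR2F2 and TCF21 were at 0 in all 4, and CXCL12 was the 1 of 16 members tested that was called. The receptor PDGFRA was at 22.75 and 24.95 TPM and then at 20.26 and 21.72 TPM, and the collagen gene COL1A2 at 4.09 and 2.5 TPM and then at 1.06 and 1.23 TPM. The summed level of the list, CXCL12 included, was 50.4 and 47.9 TPM at day 20 and 60.5 and 61.2 TPM at day 40. Without CXCL12 the sum of the other 19 was 38.8 and 39.8 TPM at day 20 and 28.6 and 28.4 TPM at day 40, lower at the later day. The part of somatic cells in the CXCL12 level was not tested, and whether mouse reads contributed to any of these values was not tested.

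Some other genes of the cell surface fell, and most were not called. In the surface and chemokine list, in which CXCL12 was the member called higher, 3 of 12 members tested were lower. That is 25%, where 6.45% of all genes tested were called lower. The median log2 difference of the list was −0.32. CD24, a glycoprotein of stem and progenitor cells, was at 233.3 and 193.5 TPM and then at 97.56 and 137.4 TPM (log2 difference −0.87 ± 0.164, adjusted p = 0.000396). CDH8, a cadherin, was at 30.68 and 42.48 TPM and then at 19.04 and 14.91 TPM (−1.06 ± 0.27, adjusted p = 0.00897). THY1, a surface glycoprotein of many stem and stromal cells, was at 4.42 and 3.26 TPM and then at 1.16 and 0.38 TPM (−1.48 ± 0.287, adjusted p = 0.000572). CDH8 and THY1 were higher still at day 6, at 115.0 and 116.0 TPM and at 9.47 and 7.56 TPM. KIT, the receptor that germ cells use for survival, was between 1.31 and 2.71 TPM in the 4 libraries. CD24 missed the threshold without the first day 40 library (adjusted p = 0.0508), and CDH8 without the second day 20 library (0.161) and the second day 40 library (0.138). Among 8 endothelial and blood cell genes tested, 5 had a difference below 0 and 2 above it, and 1 was called. PECAM1 was at 15.83 and 18.48 TPM and then at 12.68 and 10.17 TPM, without overlap and without a call. CDH5, the cadherin of endothelial cells, was the 1 called lower, at 5.6 and 7.72 TPM and then at 2.49 and 3.0 TPM (−1.02 ± 0.302, adjusted p = 0.0262). The summed level of that list was 23.9 and 27.2 TPM at day 20 and 16.5 and 15.6 TPM at day 40, the receptor KDR was at 0.25 TPM in one day 20 library and at 0 in the other 3, and the median difference was −0.08. CDH5 passed without the first day 20 library only, with adjusted p-values of 0.237 without the second, and of 0.175 and 0.0853 without the day 40 libraries.

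Imprinted genes, which are expressed from one parental copy, had 3 of 11 members called, all lower. That is 27.3%, where 6.45% of all genes tested were called lower. The count was also 3 after median-ratio scaling and after quantile normalization. It was 4 of 10 with the filter set on the 4 libraries compared, and 1 in a model of the 8 libraries of day 6 and the xrOvaries. CDKN1C, an inhibitor of the cell cycle, was at 83.72 and 71.19 TPM at day 20 and at 27.03 and 26.06 TPM at day 40 (log2 difference −1.51 ± 0.292, adjusted p = 0.000552). MAGEL2 was at 6.36 and 11.64 TPM and then at 1.59 and 3.04 TPM (−1.58 ± 0.296, adjusted p = 0.000386), and NNAT, neuronatin, at 14.42 and 19.97 TPM and then at 7.95 and 3.89 TPM (−1.44 ± 0.266, adjusted p = 0.000315). These 3 calls held without each library, and the median of the list was −0.21. PEG10 was at 64.01 and 62.82 TPM and then at 67.76 and 66.0 TPM, and NDN at 145.9 and 145.5 TPM and then at 125.2 and 127.4 TPM, neither with a call.

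Among genes of DNA methylation and demethylation, 0 of 12 rose and 2 fell, with a median log2 difference of −0.21. TDG, a glycosylase that removes oxidised methylcytosine, was at 15.06 and 16.71 TPM and then at 9.3 and 6.83 TPM (−0.91 ± 0.188, adjusted p = 0.00117). GADD45A, a stress protein linked to demethylation, was at 23.84 and 33.16 TPM and then at 15.59 and 9.78 TPM (−1.12 ± 0.211, adjusted p = 0.000386). The maintenance methyltransferase DNMT1 was at 32.56 and 35.91 TPM and then at 27.41 and 26.94 TPM, and the dioxygenase TET1 at 21.46 and 27.73 TPM and then at 25.67 and 24.46 TPM, without a call. In a model of the 8 libraries of day 6 and the xrOvaries, 0 members of this list were called. In the list of repressive chromatin, where that model also called 0 members, 1 of 14 rose in the main model, with a median of 0.03. It was SUV39H1, a methyltransferase of histone H3 lysine 9, at 51.71 and 44.96 TPM and then at 85.97 and 72.44 TPM (0.70 ± 0.141, adjusted p = 0.000867). The calls of SUV39H1 and GADD45A held without each library, and that of TDG was lost without the second day 40 library (adjusted p = 0.0652).

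Genes that respond to retinoic acid, the signal that starts meiosis in the fetal ovary, moved apart. Of 10 members tested, 1 rose and 3 fell, and the median log2 difference was −0.15. CRABP2, which carries retinoic acid to the nucleus, was at 13.81 and 20.32 TPM and then at 3.94 and 11.22 TPM (−1.19 ± 0.359, adjusted p = 0.0293). RARG, a receptor, was at 7.88 and 12.51 TPM and then at 4.79 and 7.09 TPM (−0.68 ± 0.201, adjusted p = 0.0261). The related carrier CRABP1 was at 95.37 and 102.0 TPM and then at 96.03 and 86.63 TPM. CRABP2 and RARG lost their call without the second day 20 library (adjusted p = 0.269 and 0.445) and without the first day 40 library (0.563 and 0.366). Their log2 differences were −0.93 and −0.38 in the former case and −0.54 and −0.44 in the latter.

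Targets of BMP and WNT signalling had few calls. Of 13 BMP targets tested, 0 rose and 1 fell, with a median log2 difference of −0.37, and of 13 genes of WNT targets and feedback 0 rose and 1 fell, with a median of −0.33. The BMP median was −0.13 without the first day 20 library and −0.06 without the second day 40 library, and the WNT median lay between −0.41 and −0.22 without one library. ID1, the classical BMP target, was at 284.9 and 169.0 TPM and then at 172.0 and 117.8 TPM (−0.62 ± 0.182, adjusted p = 0.0244). Its groups overlap, and after median-ratio scaling or quantile normalization it was not called. NKD1, an inhibitor of WNT signalling that is itself induced by it, was at 12.97 and 12.92 TPM and then at 7.64 and 5.86 TPM (−0.86 ± 0.246, adjusted p = 0.0215). TBXT, the WNT target of the primitive streak that early primate germ cells carry, was at 297.8 and 353.6 TPM and then at 205.4 and 194.6 TPM; the groups did not overlap, but the test was not passed. ID1 missed the threshold without the first day 20 library (adjusted p = 0.481) and the second day 40 library (0.444), with log2 differences of −0.25 and −0.35. NKD1 did so without the first and the second day 20 library (0.0632 and 0.103) and without the second day 40 library (0.229).

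Lists of general cell physiology held few calls. Of 17 proliferation genes tested 1 rose and 1 fell, with a median log2 difference of −0.01: the replicative helicase subunit MCM5 was at 116.0 and 141.7 TPM and then at 163.3 and 160.7 TPM (0.33 ± 0.104, adjusted p = 0.0345), and the thymidylate synthase TYMS at 178.4 and 162.7 TPM and then at 137.0 and 124.7 TPM (−0.38 ± 0.099, adjusted p = 0.0105). TOP2A, which dividing cells need to part their chromosomes, was at 177.3 and 179.0 TPM and then at 171.9 and 176.0 TPM. MCM5 passed only without the second day 20 library, with adjusted p-values of 0.344, 0.164 and 0.137 without the others and a log2 difference of 0.19 without the first day 20 library, and TYMS lost its call without the first day 20 library (0.0899) and the second day 40 library (0.161). Of 15 genes of oxidative phosphorylation, 0 were called in either direction, and the median was 0.12. In glycolysis and the response to hypoxia, 1 of 18 rose and 1 fell, with a median of 0.05. NDRG1, a gene induced by hypoxia and differentiation, rose from 13.33 and 10.67 TPM to 22.25 and 30.09 TPM (1.06 ± 0.196, adjusted p = 0.000325). PFKP, the platelet form of phosphofructokinase, fell from 11.15 and 17.02 TPM to 1.76 and 2.51 TPM (−2.25 ± 0.256, adjusted p = 1.06e-07), while PFKL, the liver form, was at 60.43 and 65.09 TPM and then at 71.78 and 63.3 TPM. NDRG1 and PFKP passed without each library.

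The list of stress and immediate early genes had 0 of 12 members called, with a median log2 difference of −0.27. Its sign rested on the second day 40 library, without which it was 0.18, and without the first it was −0.50. With either the first day 40 or the first day 20 library left out, 1 member was called lower. FOS, an immediate early transcription factor, differed within day 40, with 145.4 TPM in the first library and 41.33 TPM in the second, beside 82.94 and 100.6 TPM at day 20. In the p53 and apoptosis list 1 of 11 rose and 1 fell, with a median of −0.26. PMAIP1, which encodes the BH3-only protein NOXA, was at 30.66 and 17.69 TPM and then at 54.24 and 56.79 TPM (1.22 ± 0.201, adjusted p = 6.84e-05), and passed without each library. The death receptor FAS was at 6.02 and 14.83 TPM and then at 3.88 and 4.69 TPM (−1.0 ± 0.312, adjusted p = 0.036). It passed without the first day 20 library only, since its adjusted p was 0.638 without the second day 20 library (log2 difference −0.41) and 0.22 and 0.101 without the day 40 libraries.

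**Figure D3:**
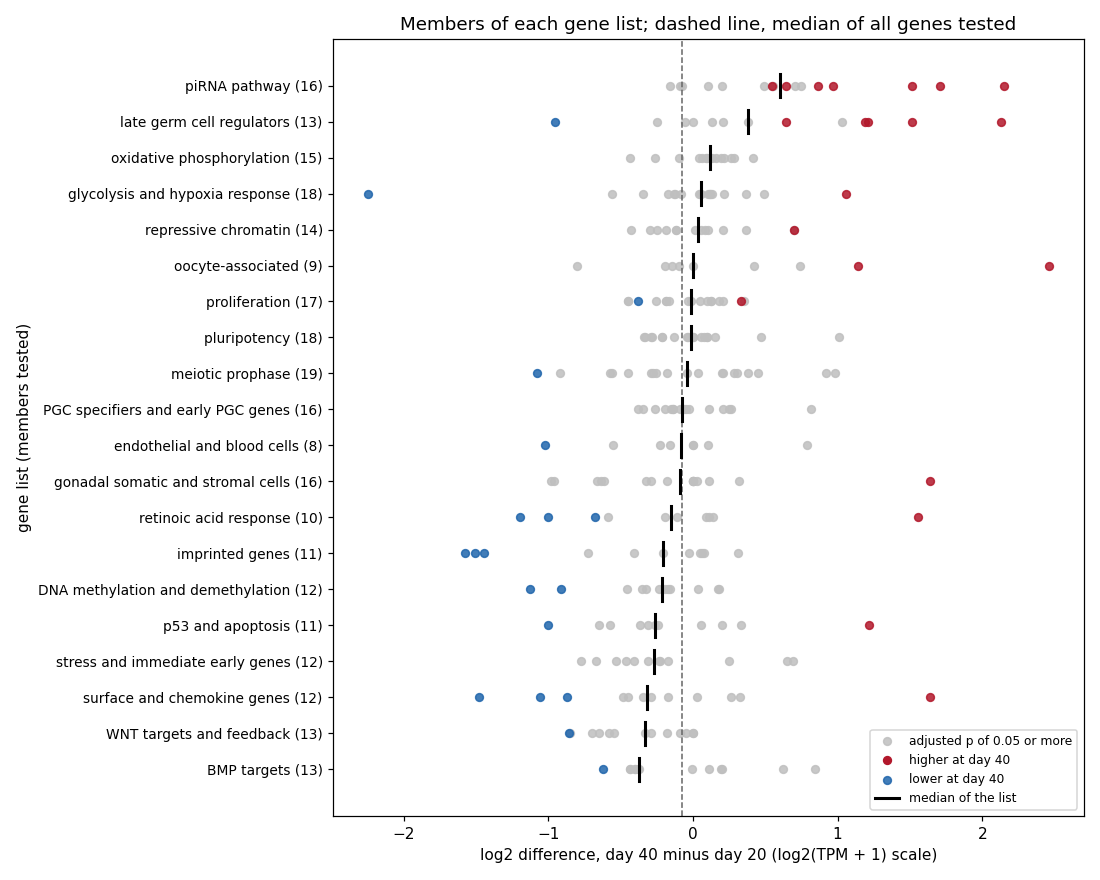
Log2 difference between day 40 and day 20 (horizontal axis) for each tested member of the 20 gene lists (rows, with the number of members tested), ordered by the median of the list, which a black bar marks. Red points are members higher at day 40 and blue points members lower at an adjusted p under 0.05, grey points did not pass, and the dashed line is the median of all genes, −0.08; the piRNA list has the median furthest to the right, 0.60.

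The 15 largest increases, among genes that passed the test with a mean log2 value above 1.5 and no overlap of the groups, included regulators and enzymes outside these lists. TLX1, a homeobox gene of spleen development, was at 0.3 and 1.38 TPM at day 20 and at 8.57 and 8.78 TPM at day 40 (log2 difference 2.46 ± 0.21, adjusted p = 1.32e-10). It was listed at 0 in both day 6 libraries. MAGEB18, a member of the MAGE family of cancer and testis antigens, was at 1.62 and 1.28 TPM and then at 9.55 and 6.17 TPM (1.83 ± 0.164, adjusted p = 3.62e-10). TBPL2, the TATA-binding protein paralog of oocytes, was at 2.5 and 5.71 TPM and then at 12.08 and 21.0 TPM (1.81 ± 0.335, adjusted p = 0.000325). The 2 metabolic enzymes ACSM3, an acyl-CoA synthetase of mitochondria, and MIOX, which opens the ring of myo-inositol, reached higher levels. ACSM3 was at 2.54 and 8.93 TPM and then at 25.69 and 27.46 TPM (2.22 ± 0.297, adjusted p = 2.34e-06), and MIOX at 16.49 and 12.24 TPM and then at 45.31 and 58.96 TPM (1.79 ± 0.28, adjusted p = 3.19e-05). CYTL1, a secreted cytokine-like protein, went from 7.2 and 5.07 TPM to 67.58 and 23.24 TPM (2.53 ± 0.416, adjusted p = 6.55e-05). Of the 15, 10 kept their call without each library: these 6 with OOEP, PRSS21, RENBP and U2AF1L4. The log2 difference of ACSM3 was 1.47 without the first day 20 library.

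In 8 of these 15 genes the second day 20 library was at 0 and the first was not. U2AF1L4 shows the pattern best. Whether it shares reads with its relative U2AF1, a splicing factor, was not tested. U2AF1L4 was at 9.97 and 0 TPM at day 20, at 22.68 and 26.94 TPM at day 40, and between 16.7 and 28.23 TPM at days 6 and 70. Its log2 difference was 2.96 ± 0.484 (adjusted p = 6.12e-05) with all libraries, 1.23 without the second day 20 library and 4.68 without the first. RENBP, an epimerase of amino sugars, had its 0 in the first day 20 library instead, with 1.83 TPM in the second and 7.13 and 5.67 TPM at day 40 (2.13 ± 0.405, adjusted p = 0.000426). Without that first library its log2 difference was 1.38. Besides GTSF1, the genes whose call was lost without the second day 20 library were CNFN, a protein of the skin barrier (4.91 and 0 TPM, then 7.78 and 10.47 TPM), SNRNP35, a component of the minor spliceosome (3.61 and 0 TPM, then 8.19 and 5.47 TPM), CCDC172 (3.41 and 0 TPM, then 7.38 and 5.28 TPM) and FCGR2B, an inhibitory Fc receptor (2.38 and 0 TPM, then 5.92 and 4.75 TPM). Their adjusted p-values without it were 0.583, 0.56, 0.499 and 0.399. The log2 differences went down, from 2.04 to 0.76 for CNFN, from 1.84 to 0.74 for SNRNP35, from 1.79 to 0.72 for CCDC172 and from 1.78 to 0.90 for FCGR2B. The same 4 genes had 0.0554, 0.163, 0.115 and 0.102 without the first day 40 library, and CNFN had 0.14 without the second.

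The 15 largest decreases were of genes at 3.56 TPM or more in both day 20 libraries, and 14 of them were DEGs. FKBP9, a chaperone of the endoplasmic reticulum, fell from 13.96 and 8.81 TPM to 1.05 and 1.03 TPM, a log2 difference of −2.57 ± 0.191 (adjusted p = 9.35e-12). CNN2, a calponin that binds actin, fell from 14.54 and 20.33 TPM to 3.12 and 2.8 TPM (−2.20 ± 0.15, adjusted p = 1.31e-12). DCTD, the deaminase that supplies thymidylate synthesis, fell from 35.55 and 32.91 TPM to 9.68 and 5.13 TPM (−2.12 ± 0.169, adjusted p = 3.35e-11). All 3 had been higher at day 6, between 62.3 and 127.6 TPM.

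Receptors and developmental regulators were also among the decreases. NGFR, the low-affinity neurotrophin receptor, went from 37.27 and 32.37 TPM to 8.88 and 4.09 TPM (−2.33 ± 0.279, adjusted p = 2.68e-07). EVX1, a homeobox gene of the primitive streak, went from 3.56 and 9.77 TPM to 0.52 and 0.25 TPM (−2.35 ± 0.323, adjusted p = 3.75e-06). ARID3A, a DNA-binding protein of the trophoblast and of B cells, went from 4.13 and 8.39 TPM to 0 and 1.3 TPM, and ATP10A, a lipid flippase, from 15.5 and 16.34 TPM to 2.66 and 2.41 TPM. AZGP1, a secreted glycoprotein, and CD34, a sialomucin of blood progenitors and endothelium, were also called lower. Both were higher at day 20 than at day 6, with 116.0 and 85.02 TPM after 50.96 and 49.46 TPM for AZGP1, and 41.16 and 65.53 TPM after 16.58 and 11.82 TPM for CD34. At day 40 AZGP1 was at 17.08 and 27.3 TPM (−2.15 ± 0.37, adjusted p = 0.000131) and CD34 at 9.75 and 12.09 TPM (−2.16 ± 0.521, adjusted p = 0.00547). The other decreases were those of SLC45A1, PPP1R1A, FAM43A, TAGLN3 and C10H14orf132, with log2 differences between −2.22 and −1.99, besides PFKP. All but CD34 passed without each library, and CD34 missed the threshold without the second day 20 library (adjusted p = 0.097) and the first day 40 library (0.0652).

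**Figure D4:**
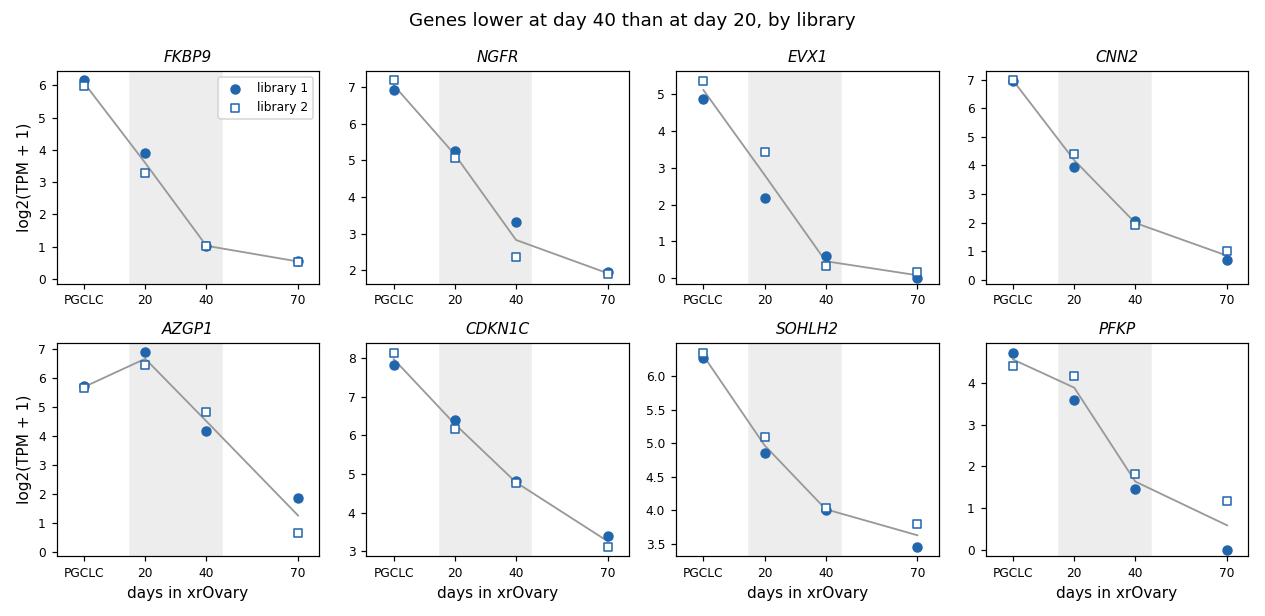
Expression of 8 genes that were lower at day 40, as log2(TPM + 1) (vertical axes, with a separate range for each gene) in day 6 PGCLCs and after 20, 40 and 70 days in xrOvaries (horizontal axes). Filled circles are library 1 and open squares library 2, lines join the means and the compared days are shaded; AZGP1 is higher at day 20 than at day 6, and the other 7 genes are lower.

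Whether a gene changed by the same amount before and after day 40 was tested in the same model, as the difference between the step to day 40 and the step to day 70. The steps share the day 40 libraries and differ in length, 20 and 30 days. The difference passed an adjusted p of 0.05 for 52 genes, 0.464% of those tested, with 855 at an unadjusted p under 0.05. The count was 31 without the second day 20 library, 210 without the first, 28 without the first day 40 library and 40 without the second. RNF17 and TLX1 had most of their increase before day 40, with log2 steps of 1.52 and 0.40 for RNF17 and of 2.46 and 0.74 for TLX1. DAZL and ASZ1 had most of it after day 40, with steps of 1.21 and 4.31 for DAZL and of 0.86 and 2.99 for ASZ1. Without the first day 40 library the difference was no longer called for RNF17 (adjusted p = 0.509), TLX1 (0.145) and DAZL (0.0861), and without the second for TLX1 (0.176) and ASZ1 (0.317). MAEL and CXCL12 were not among the 52, with steps of 0.97 and 0.84 and of 1.64 and 0.85.

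CYTL1 turned back after its increase, from 67.58 and 23.24 TPM at day 40 to 0 and 0.38 TPM at day 70. RENBP did so too, from 7.13 and 5.67 TPM to 1.04 and 1.36 TPM. STK26, a kinase chosen after its values were seen like the next 3 genes, was at 20.03 and 26.39 TPM at day 20, at 35.79 and 39.36 TPM at day 40 and at 9.39 and 11.19 TPM at day 70. The GTPase gene RAB41 was listed at 0 at day 20, at 0.34 TPM in both day 40 libraries and at 17.36 and 26.12 TPM at day 70. PHGDH, the first enzyme of serine synthesis, was at 46.6 and 51.28 TPM at day 20, at 46.3 and 43.73 TPM at day 40 and at 140.4 and 118.5 TPM at day 70. KRT18, a keratin of simple epithelia, fell before day 40, from 243.3 and 251.3 TPM to 76.56 and 78.12 TPM (log2 difference −1.66 ± 0.141, adjusted p = 1.08e-10), and was at 61.01 and 61.53 TPM at day 70. FKBP9 and SLC45A1 had likewise gone down before day 40, and their steps to day 70 were −0.49 and −0.12. At day 40 they were already at 1.05 and 1.03 TPM and at 0.95 and 0.43 TPM. On the log2(TPM + 1) scale they could fall little further, so a smaller second step was fixed in advance. In TPM, FKBP9 still went down, to 0.47 and 0.44 TPM at day 70. The difference between the steps was not called without the first day 40 library for RENBP (adjusted p = 0.0963) and KRT18 (0.0697), and for SLC45A1 without the second day 20 library (0.11) or the second day 40 library (0.46).

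**Figure D5:**
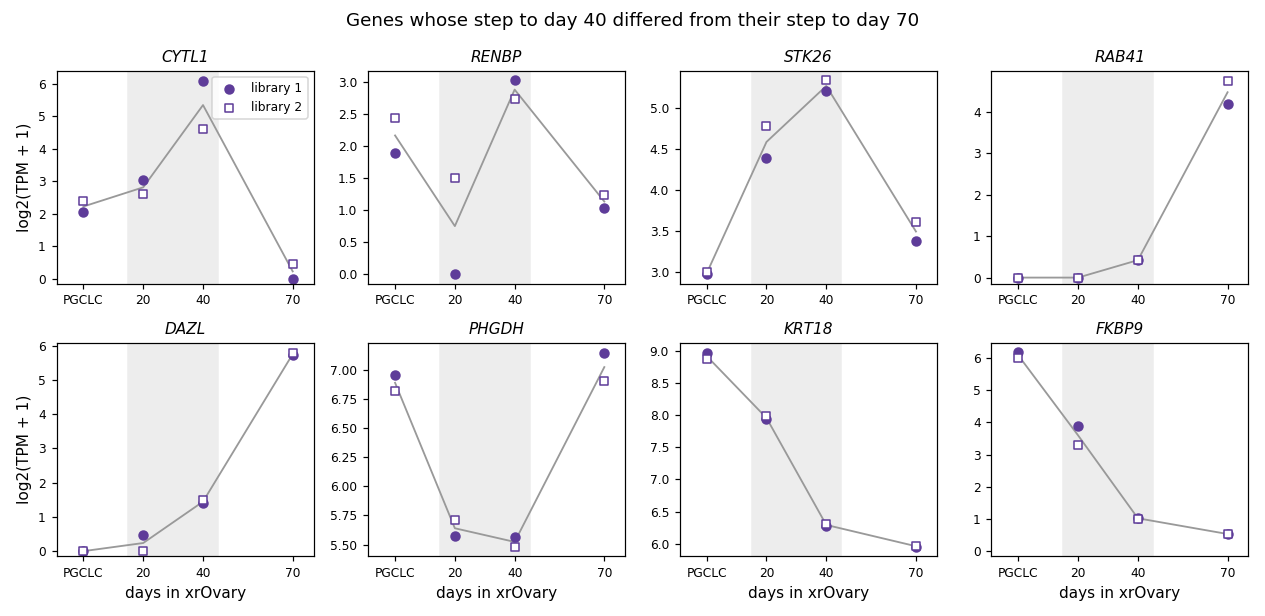
Expression of 8 genes whose step to day 40 differed from their step to day 70, as log2(TPM + 1) (vertical axes, with a separate range for each gene) in day 6 PGCLCs and after 20, 40 and 70 days in xrOvaries (horizontal axes). Filled circles are library 1 and open squares library 2, lines join the means and the days 20 and 40 are shaded. CYTL1, RENBP and STK26 peak at day 40, DAZL, RAB41 and PHGDH rise after it, and KRT18 and FKBP9 fall mainly before it. FKBP9 is near the floor of the scale from day 40 on.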

How the data were processed

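The series holds poly(A) RNA-seq of 54 libraries in 27 conditions of 2. Per the study's methods, the authors aligned single-end reads with STAR to the marmoset assembly Callithrix_jacchus_cj1700_1.1, filtered alignments by mapping quality with samtools, quantified them with RSEM and deposited TPM values for genes shared by marmoset and human. The table analysed here holds 14812 genes, fewer than the methods describe. Their own differential test was edgeR on counts, which are not used here, so read depth is unknown and TPM were tested with limma. Libraries were grouped by their labels. Genes with log2(TPM + 1) of at least 1.5 in at least 1 of the 54 libraries were kept (11197), and limma 3.58.1 in R 4.3.3 was fitted to 27 condition means with an intensity trend. An adjusted p under 0.05 was called. With 2 libraries against 2, exact permutation cannot reach a p below 0.33 for any one gene and was not used. The code was tested on simulated data.

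The comparison and the gene lists were chosen with earlier results of these data known. Beside list members, the 15 largest increases and decreases were named, among called genes with a mean log2 value above 1.5, no overlap between the groups and a symbol beyond a locus number. Alternatives changed the pseudocount, filter, libraries fitted, scaling, intensity trend, replicate block and each library in turn. The genome build of the reference tables at hand differs from that of the reads, so no coordinates or sequences are given. Some members of the lists are not reported here.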

Additional observations from a re-analysis of the deposited data

Results flagged for a closer look

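The step to day 40 and the step to day 70 differed, by a test of the difference in the same model, for 16 of the genes named. Each value is the log2 step from day 20 to day 40 minus that from day 40 to day 70, with limma's adjusted p; both steps use the day 40 libraries.

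The difference was above 0 for CYTL1 (7.65, adjusted p = 1.59e-08), SPINK1 (7.32, 0.000187), RENBP (3.88, 0.00242), STK26 (2.46, 0.00022), AFP (3.10, 0.0209), TLX1 (1.72, 0.0152) and RNF17 (1.11, 0.0209). It was below 0 for RAB41 (−3.63, adjusted p = 2.83e-08), DAZL (−3.10, 0.00363), ASZ1 (−2.12, 0.00617), SLC45A1 (−2.10, 0.0185), FKBP9 (−2.08, 0.000341), C10H14orf132 (−1.62, 0.0485), PHGDH (−1.61, 1.76e-05), KRT18 (−1.33, 0.00271) and DCTD (−1.21, 0.0481). FKBP9, SLC45A1 and C10H14orf132 were at 1.56 TPM or less at day 40. On the log2(TPM + 1) scale this left little room for a later fall.

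Only CYTL1, FKBP9, PHGDH, RAB41 and STK26 kept the call without each of the 4 libraries of days 20 and 40. Without the first day 40 library the adjusted p was 0.0861 for DAZL, 0.0697 for KRT18, 0.0963 for RENBP, 0.509 for RNF17, 0.0579 for SPINK1, 0.145 for TLX1, 1 for AFP and 0.219 for C10H14orf132. Without the second day 40 library it was 0.317 for ASZ1, 0.458 for C10H14orf132, 1 for DCTD, 0.46 for SLC45A1 and 0.176 for TLX1. Without the second day 20 library it was 0.214 for C10H14orf132, 0.0987 for DCTD, 0.061 for AFP and 0.11 for SLC45A1.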

How the results depend on the processing

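Leaving out one library at a time gave 512 to 1321 called genes between days 20 and 40 (1008 with all), 16 to 38 DEGs (23 with all) and 28 to 210 genes whose steps differed (52 with all). A fit of the 4 libraries alone gave 0 called genes and 0 DEGs, with 2001 genes at an unadjusted p under 0.05. A fit of the 8 libraries of day 6 and the xrOvaries gave 554 called genes, 2 DEGs and 2 genes whose steps differed; both fits estimate the spread from fewer libraries. Genes whose steps differed numbered 105 with log2(TPM + 0.1) and 83 without a filter. With the replicate number as a replicate block they numbered 85, beside 1052 called genes and 24 DEGs. Deviations of same-numbered libraries were correlated at 0.029, so the numbers were not taken to pair them.

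Small differences that were not called changed sign. With median-ratio scaling the log2 differences were 0.0775 for NANOG, 0.0304 for NANOS3, 0.0854 for POU5F1 and 0.069 for TFAP2C, and with quantile normalization 0.00869 for TFAP2C and 0.00681 for PHGDH. Without one library at a time, NANOG lay between −0.105 and 0.0232 and NANOS3 between −0.295 and 0.12. Of the 71 called genes named, 48 to 63 stayed called without one library, 67 after median-ratio scaling, 64 after quantile normalization, 29 in the fit of 8 libraries and 0 in the fit of 4. Over the 20 lists, 86 of 260 medians under the alternatives moved by more than the spread between replicates; the glycolysis list turned to −0.04 without the first day 20 library. The sign was lost for MRPS14, between −0.0229 and 2.45 without one library, and for AFP, between 0 and 3.10. The TPM do not give the depth, so counting error at low levels could not be computed.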

Other observations

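The homeobox genes HOXA4 and HOXA7, chosen after their values were seen, were called higher at day 40. Of 26 HOX genes tested, 3 were called higher and 0 lower, and the others were not called. Over all genes tested, 2.55% were called higher and 6.45% lower. At day 20, 21 of the 26 were listed at 0 in both libraries and none exceeded 0.88 TPM. They could hardly fall from there, so the absence of lower calls was largely fixed in advance. HOXA4 was listed at 0 in both day 20 libraries, at 2.97 and 2.7 TPM at day 40 and at 9.18 and 9.55 TPM at day 70 (limma, adjusted p = 5.61e-06). HOXA7 was listed at 0 at day 20 and at 3.23 and 1.06 TPM at day 40 (adjusted p = 0.0075, with 0.0524 without the second day 20 library and 0.228 without the first day 40 library).

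Genes of secreted liver and yolk sac proteins, also chosen after their values were seen, differed between libraries of the same day. SPINK1, a trypsin inhibitor, was at 14.29 and 0 TPM at day 20, at 40.35 and 14.11 TPM at day 40 and at 0 at day 70. Its log2 difference of 2.68 (limma, adjusted p = 0.00474) was made between groups that overlap, and the adjusted p was 0.574 without the second day 20 library, with a log2 difference of 0.71, and 0.154 without the first day 40 library. AFP, alpha-fetoprotein, was at 7.59 TPM in the first day 40 library and at 0 in the second, and at 0 at days 20 and 70. Its call as higher (adjusted p = 0.00842) thus rested on 1 library, without which the log2 difference was 0, and without the second day 20 library the adjusted p was 0.0556. TTR, transthyretin, was at 11.1 and 5.64 TPM at day 20, at 6.27 and 19.29 TPM at day 40 and at 0 at day 70. Whether other cells in the sort contributed was not tested.

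The mitochondrial ribosome genes MRPL57 and MRPS14 were low in the second day 20 library alone. MRPL57 was at 61.77 and 10.49 TPM at day 20 and at 62.86 and 67.88 TPM at day 40, and MRPS14 at 69.1 and 11.64 TPM and then at 72.13 and 64.1 TPM. Both were called higher at day 40 (limma, adjusted p = 0.013 and 0.016). Without the second day 20 library the log2 differences of MRPL57 and MRPS14 were 0.08 and −0.02 (adjusted p = 0.964 and 1), and neither passed without the first day 40 library (0.0645 and 0.125) or the second (0.101 and 0.0687).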
